A study of Mus musculus with 4 samples.

Results

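The beta cells of late db/db islets taken after an intervention were compared with those of late db/db islets without it. Beta cells were defined by measured values: a barcode counted as one when it held at least 1000 UMIs (unique molecular identifiers, each standing for 1 captured RNA molecule), at least 500 genes and at most 20% UMIs of mitochondrially encoded (mt-) genes, when Ins1 and Ins2 together took at least 20% of its UMIs, and when Gcg, Sst and Ppy each took under 5%. The rule selected 4177 cells, 3357 with the intervention and 820 without, out of 13962 barcodes in these 2 libraries and 26760 in the whole series.

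Single islet cells of male mice were sequenced with droplet 3′ chemistry, in 1 library per group. Both groups compared carry the genotype label db/db on C57BL/KsJ, a line without working leptin receptor signalling, and both have an age label of 98 days. The db/db mice had been kept until they were hyperglycaemic and were then assigned to groups at random. What the intervention consisted of, and how many mice a library pools, are not given in the sources used here. The normal control (98 days) and early db/db (70 days) libraries are shown only for their levels, and the control also carries the db/db genotype label although the protocol names C57BL/6 mice as well. The file of the early db/db library has a name that reads as a control, and its group was taken from the sample label.

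Beta cells sense glucose by taking it up through GLUT2, encoded by Slc2a2, and by phosphorylating it, which closes ATP-sensitive potassium channels and triggers calcium-driven release of insulin granules. Transcription factors such as MAFA, PDX1 and NKX6-1 maintain the genes of this machinery, and mature rodent beta cells also carry a granule zinc transporter, Slc30a8, and the glucose-6-phosphatase G6pc2. In the db/db mouse, sustained high demand for insulin loads the endoplasmic reticulum (ER), and beta cells are known to lose MAFA and GLUT2 and to gain markers of immature cells such as Aldh1a3.

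With 1 library per group no spread between animals could be measured, no test was possible and no p-value is given. The 95% intervals below cover counting error only, and a difference between the libraries cannot be told apart from a difference between their mice, dissociations or runs. The libraries summed to 157952234 UMIs with the intervention and 120934779 without. Beta cells were 65.6% of the 5115 barcodes that passed the UMI, gene and mt- limits with the intervention and 13.01% of 6301 without. Their depth differed, with a median of 42161 UMIs per beta cell with the intervention and 88070.5 in late db/db, so the gene ratios, counts and list medians over all beta cells were also taken from 474 cells per library matched on UMIs. The matched cells had medians of 66977 UMIs with the intervention and 70225 in late db/db. The first lies above the 90th percentile of all intervention beta cells, 62553.2 UMIs, so the matched intervention cells came mostly from that library's deepest cells. The Ins1 bands, shares of cells and sums per cell below have no such matched value. The libraries shared 16 barcodes, of which 1 was a beta cell in both.

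The cells just above the insulin limit, at 20 to 25% of UMIs, numbered 148 with the intervention and 54 without, and those just below it, at 15 to 20%, numbered 118 and 42. The hormone shares chose the cells and are given as a description. Ins2, the rodent gene that corresponds to human insulin, took 36.3% of beta cell UMIs with the intervention and 39.0% in late db/db. Ins1, the second insulin gene of rodents, took 10.7% and 4.47%, so that it made up 22.8% and 10.3% of all insulin UMIs. Iapp, which encodes the co-secreted peptide amylin, took 12.4% and 11.1%. Of 10 listed beta cell markers none was at 0 in either library.

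All levels below are in CPM, the UMIs of a gene in each 1e+06 beta cell UMIs outside the mt- genes and 7 hormone genes, and ratios are log2 values of the intervention over late db/db. Genes were considered, or entered, if 1 of the libraries reached 50 CPM and the pair held 50 UMIs or more in sum; those at least 2-fold apart were counted. Of 3441 genes that entered, 23 were at least 2-fold higher with the intervention (0.668%) and 20 at least 2-fold lower (0.581%). The median ratio was -0.01, and 93.6% of the genes lay within 1.5-fold. Between cells matched on UMIs, 3438 genes entered, of which 16 were higher (0.465%) and 27 lower (0.785%); 11 and 12 of these were also among the counted genes of the full sums. All 23 higher and all 20 lower genes of the full sums kept their direction in the matched cells. Other scalings moved the balance of the counts: 16 higher and 21 lower with TMM factors and 16 and 23 with median-of-ratios factors. With all UMIs as the denominator, which lowers each log2 ratio by 0.18, only 1372 genes entered, 6 of them higher and 18 lower.

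**Figure D1:**
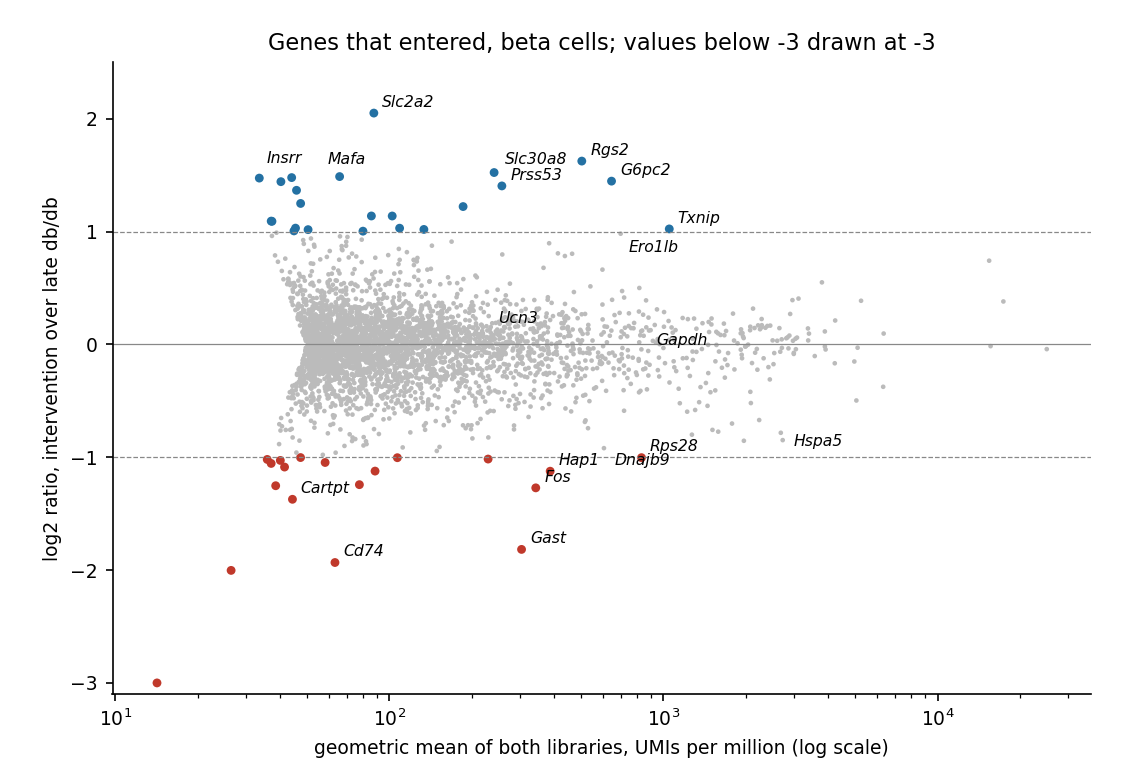
Log2 ratio of summed beta cells, intervention over late db/db, against the geometric mean of the 2 levels in CPM on a log scale, for genes that entered with UMIs in both libraries. Blue points are the 23 genes at least 2-fold higher with the intervention, red points those at least 2-fold lower, and grey points the rest; dashed lines mark 2-fold, Igkc is drawn at -3, and Ccl21a, at 0 with the intervention, is not drawn.

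The glucose transporter gene had the highest ratio. Slc2a2 (ENSMUSG00000027690, GRCm38 chr3:28697903-28731359, plus strand), the glucose transporter of the beta cell membrane, measured 179 CPM with the intervention and 43.1 CPM in late db/db, from 8800 and 1222 UMIs. Its log2 ratio was 2.05 (95% interval 1.96 to 2.14), the highest of the 3441 genes in the summed cells, and 2.15 in the matched cells. The same gene stood at 897.5 CPM in the control and 46.8 CPM in early db/db, so the intervention library lay above both untreated db/db libraries and below the control. After each cell was thinned to 3000 UMIs outside the hormone and mt- genes, 36.0% of intervention cells (exact 95% interval 34.3 to 37.7) and 10.9% of late db/db cells (8.85 to 13.3) held a Slc2a2 UMI; unthinned shares were 67.6% and 46.2%. Among the endothelial-marker cells of the same libraries, which should lack the gene, 1.802% of 222 and 0 of 125 did, the latter allowing up to 2.4%, at median depths of 4230.5 and 8385 UMIs.

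G6pc2 (chr2:69211073-69227841), which opposes glucose phosphorylation in the beta cell, was at 1067 CPM and 391 CPM, a log2 ratio of 1.45 (1.42 to 1.48), and stood at 1594 CPM in the control. Its nearest neighbour, Spc25, lies 4879 bases away on the other strand and had a ratio of 0.80. Of 16 listed genes of glucose entry, metabolism and the potassium channel, 6 entered, 2 were counted higher and none lower. Abcc8, the sulphonylurea receptor subunit of the channel, was at 829.9 against 622 CPM, a ratio of 0.42. Tmem27, a membrane protein of beta cells, was at 2195 against 2721 CPM, a ratio of -0.31. The list therefore divided, with 3 of the 6 members above 0 and 3 below.

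Of the listed transcription factors, Mafa alone passed 2-fold. Mafa (chr15:75745490-75748228, minus strand), an activator of insulin and of many mature beta cell genes, was at 110.2 CPM with the intervention and 39.3 CPM in late db/db, from 5431 and 1114 UMIs, against 1036 CPM in the control and 30.7 CPM in early db/db. Its log2 ratio was 1.49 (1.39 to 1.58). The late db/db value rested on few cells: 10 cells held 28.7% of that library's beta cell Mafa UMIs, against 3.90% with the intervention. In thinned cells, 22.4% (21.0 to 23.9) and 8.14% (6.33 to 10.3) held a Mafa UMI.

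Nkx6-1, which represses other endocrine programmes in beta cells, was at 332 against 228 CPM (0.54), and Foxa2, a pioneer factor of endoderm, at 91.5 against 64.0 CPM (0.52). Mlxipl, the carbohydrate response factor ChREBP, was at 160.2 against 101.8 CPM (0.65). Pdx1, needed for both pancreas formation and insulin transcription, was at 163 against 142 CPM (0.20). Of 20 listed factors 13 entered, and their ratios ran from 0.08 to 1.49 with a median of 0.24, beside -0.01 over all genes that entered. In the matched cells 10 of the 13 were above 0 and 3 below, so the small differences did not all keep their sign.

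The maturation markers formed the list with the highest median. Of 18 listed, 11 entered, 7 were counted higher and none lower, and the median was 1.37 (1.28 in the matched cells). Slc2a2, Mafa, Tmem215 and Sytl4, 4 of the 11, reached 50 CPM in the intervention library only, so their entry already required a difference, and the list was drawn up with earlier results of these data known. Slc30a8, G6pc2 and Ppp1r1a, the other counted members, reached it in both libraries. Ppp1r1a, an inhibitor of protein phosphatase 1, was at 284 against 122 CPM (1.22), but 0.82 in the matched cells, under 2-fold. Tmem215, a membrane protein, was at 66.3 against 24.4 CPM (1.44).

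Members of the same list did not all follow. Ucn3, urocortin 3, a peptide that mature mouse beta cells co-release with insulin, was at 244 against 222 CPM, a ratio of 0.13 (0.09 to 0.18), with 708 CPM in the control. Prlr, the prolactin receptor, was at 461 against 437 CPM (0.08). Syt4, a synaptotagmin of maturing beta cells, was at 227 against 305 CPM (-0.42). Below the entry limit, and chosen after their values were seen, the cation channel gene Trpm5 was at 19.8 against 2.29 CPM, Fam151a at 25.2 against 2.96 CPM and the cytochrome c oxidase subunit gene Cox6a2 at 36.0 against 5.57 CPM. In the control these 3 stood at 430, 372 and 391 CPM.

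**Figure D2:**
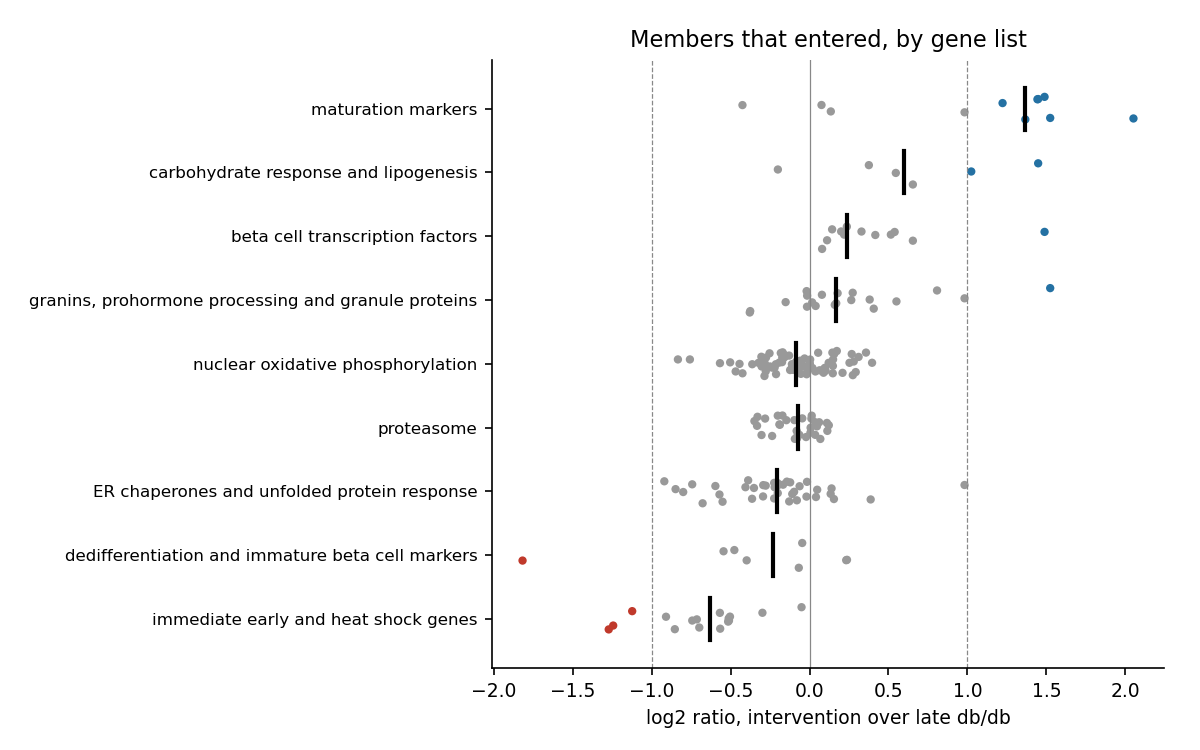
Log2 ratio, intervention over late db/db, of each member that entered, for 9 gene lists. Points are genes (blue at least 2-fold higher, red at least 2-fold lower), black bars list medians and dashed lines 2-fold; the maturation markers centre on 1.37 and the immediate early and heat shock genes on -0.63.

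Per cell, the higher maturation markers were spread over many intervention cells. In cells thinned to 3000 UMIs, the 18 markers together gave a median of 11 UMIs per cell with the intervention (10th to 90th percentile 5 to 24) and 7 in late db/db (3 to 12). The control had a median of 37 (22 to 51) and early db/db 6 (3 to 12). Cells above 12 UMIs, the 90th percentile of late db/db, were 42.5% of intervention cells, 8.27% of late db/db cells and 96.4% of control cells. Without G6pc2 the medians were 8 with the intervention, 6 in late db/db and 32 in the control. The distributions of the 2 groups overlapped widely: the lower quartile of intervention cells, 7 UMIs, equalled the median of late db/db. Thinning left out 246 of the 3357 intervention cells and 34 of the 820 late db/db cells, which held too few UMIs.

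**Figure D3:**
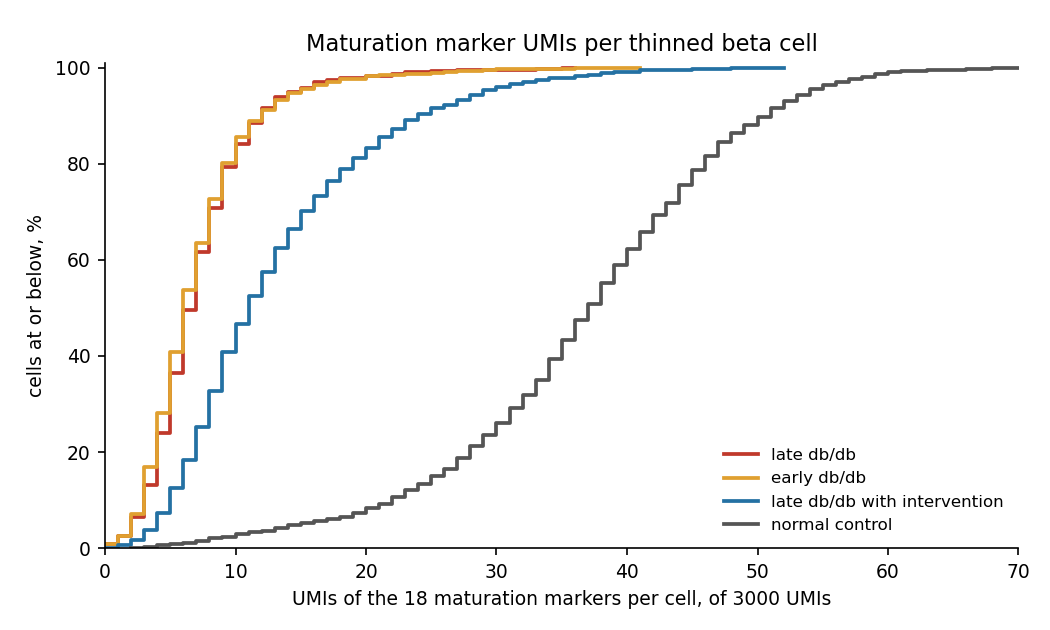
Cumulative share of beta cells (%) by the summed UMIs of the 18 maturation markers in cells thinned to 3000 UMIs, 1 curve per library. The intervention curve (median 11) runs between those of late db/db (7) and the control (37), and early db/db (6) lies close to the late db/db curve.

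Among granule genes the zinc transporter alone passed 2-fold. Slc30a8 (chr15:52295553-52335798), the zinc transporter ZnT8 that loads insulin granules with zinc, was at 409 against 142 CPM, a ratio of 1.52 (1.47 to 1.57), and 1367 CPM in the control; 61.3% and 31.6% of thinned cells held a UMI. Ero1lb, an oxidase that helps form disulphide bonds in proinsulin, was at 981 against 497 CPM (0.98, just under 2-fold). Pcsk1, the first proinsulin convertase, was at 545 against 311 CPM (0.81), and Pcsk2, the second, at 4581 against 3128 CPM (0.55). Of the 20 listed granins, processing and granule genes all 20 entered, 1 was counted higher and none lower, 14 were above 0 and 6 below, and the median was 0.16 (0.08 in the matched cells).

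The release machinery showed no common direction. Of 20 listed docking and exocytosis genes 14 entered, 7 above 0 and 7 below, with a median of 0.01. Sytl4, granuphilin, which docks insulin granules at the membrane, was the 1 counted, at 73.6 against 28.5 CPM (1.37). Cplx2, a complexin that clamps fusion, was at 169.5 against 126 CPM (0.43). Rab3a, a granule-bound small GTPase, was at 257 against 349 CPM (-0.44).

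Signalling genes that were higher included a G protein regulator and receptors. Rgs2 (chr1:143999338-144004161), which shortens signalling of Gq-coupled receptors, was at 884 against 287 CPM, a ratio of 1.63 (1.59 to 1.66) and 1.27 in the matched cells. Unlike Slc2a2 and Mafa, it stood higher with the intervention than in the control, at 621 CPM. Rgs2 UMIs were found in 78.8% (77.3 to 80.2) and 47.3% (43.8 to 50.9) of thinned cells. Insrr, the insulin receptor-related receptor, was at 73.5 against 26.4 CPM (1.48). Ffar1, the fatty acid receptor that potentiates insulin release, was at 109 against 57.4 CPM (0.93), and P2ry1, a purinergic receptor, at 162 against 97.6 CPM (0.74). Irs2, the insulin receptor substrate of beta cell survival signalling, was lower, at 60.8 against 112 CPM (-0.88). Of 26 listed receptors and cAMP signalling genes 11 entered and none was counted in either direction.

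Among carbohydrate response genes, G6pc2 and Txnip passed 2-fold. Txnip, thioredoxin-interacting protein, which glucose induces through ChREBP, was at 1497 against 736 CPM, a ratio of 1.02 (1.002 to 1.046), and 418 CPM in the control. It was under 2-fold in the matched cells, at 0.77, and with all UMIs, TMM or median-of-ratios scaling, at 0.84, 0.99 and 0.98. Arrdc4, its paralog, was at 78.4 against 60.4 CPM (0.38). Of 18 listed carbohydrate response and lipogenesis genes 6 entered, 1 of them through the intervention library only, and the median was 0.60 (0.31 in the matched cells). The Txnip ratio was also above 0 in other cells: it was 0.79 in macrophage-marker cells (45 and 104 cells) and 1.13 in endothelial-marker cells of the same libraries. Hadh, a fatty acid oxidation enzyme that restrains insulin release, had 573 against 333 CPM (0.78) in beta cells and ratios of 0.85 and 0.98 in those other cells. Insulin took a median of 4.66% and 4.86% of UMIs in these macrophage- and endothelial-marker cells with the intervention, and 0.74% and 0.57% in late db/db. G6pc2 had a ratio of 4.93 in the endothelial-marker cells. How far beta cell RNA entered these and later ratios of such cells was not tested.

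The remaining counted genes included the serine protease gene Prss53, at 419 against 158 CPM (1.41), and Necab2, a neuronal calcium-binding protein, at 73.2 against 30.8 CPM (1.25). Galnt18, a glycosyltransferase, was at 55.9 against 20.1 CPM (1.47). In cells of 40000 to 80000 UMIs, a range chosen after seeing the data, Necab2 and Galnt18 were under 2-fold, at 0.85 and 0.98.

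**Figure D4:**
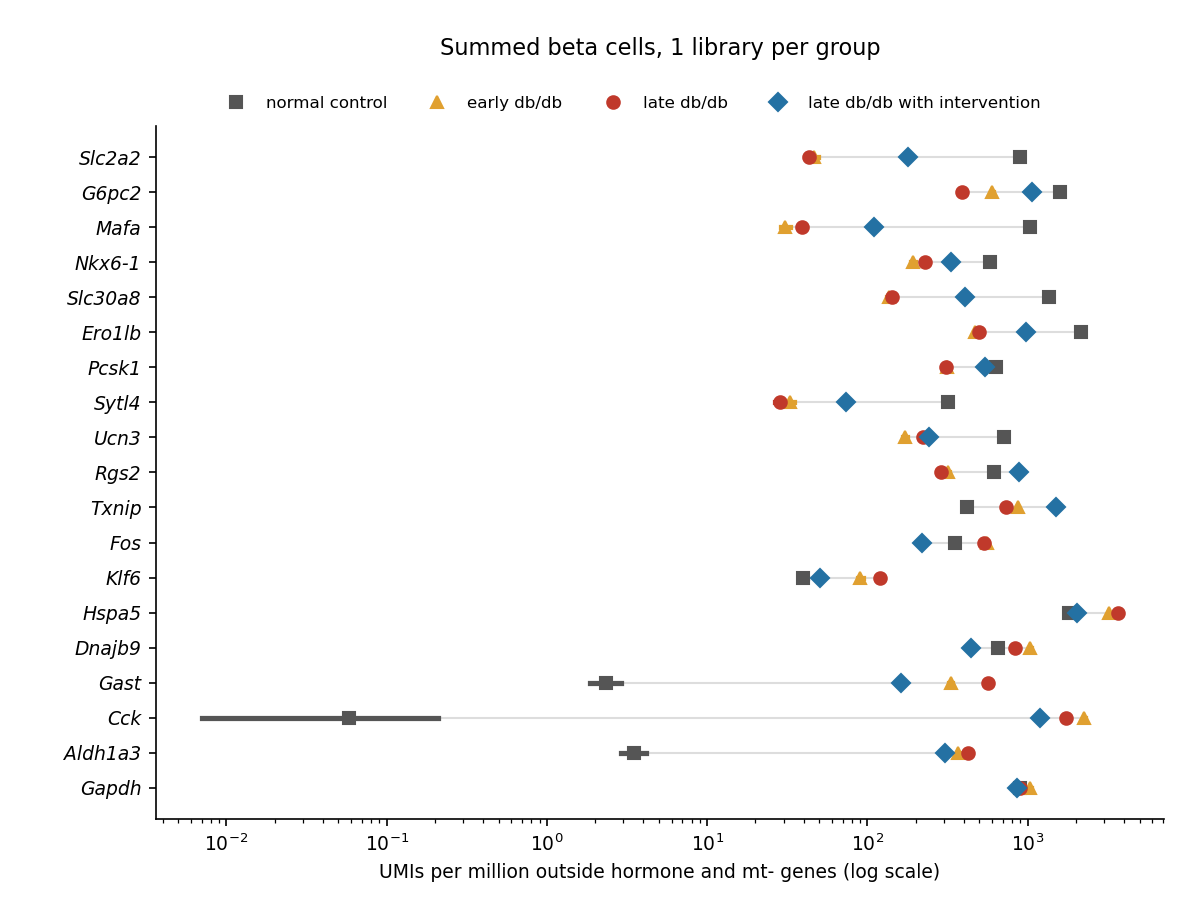
Levels of 19 genes in summed beta cells of the 4 libraries, in CPM on a log axis; points are libraries and thick bars exact 95% Poisson intervals, mostly narrower than the points. For Slc2a2, Mafa and Slc30a8 the intervention lies between late db/db and the control, for Rgs2 and Txnip above all other libraries, and for Fos and Dnajb9 below them.

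The intervention library held a different mix of beta cells by Ins1 share, and the ratios were therefore also taken within bands of Ins1 as a percentage of each cell's insulin UMIs, a grouping chosen after seeing the data. Cells with Ins1 at 20% or more were 60.1% of the intervention cells (2016 cells) and 10.5% of late db/db (86 cells), while those under 5% were 5.18% (174 cells) and 38.2% (313 cells). Bands of 5 to 10% and 10 to 20% held 319 and 848 intervention cells and 228 and 193 late db/db cells. In both libraries Mafa levels were higher in the bands with more Ins1: from 12.0 to 164 CPM with the intervention and from 5.87 to 241 CPM in late db/db.

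Within these bands the Mafa ratio was no longer 2-fold in 1 direction. From the lowest band to the highest it was 1.03, -0.20, 0.39 and -0.56, against 1.49 over all cells. The first rested on 31 and 64 UMIs (0.36 to 1.67), and the interval of the second, -0.64 to 0.23, included 0. The last (-0.67 to -0.44) drew on 678 UMIs of 86 late db/db cells. Whether few of those cells held most of these UMIs was not tested. Tmem215 was also not 2-fold throughout, but its ratios ran the other way over the bands, at -0.15, -0.13, 0.42 and 1.03. Its first 2 intervals, -0.65 to 0.33 and -0.49 to 0.22, included 0. Slc2a2 stayed higher with the intervention in each band, at 1.003, 1.29, 0.79 and 0.85, though less than over all cells. Slc30a8 was at 0.46, 0.54, 0.76 and 0.60, and G6pc2 at 0.69, 0.78, 0.92 and 0.30. These genes therefore had smaller ratios between cells of like Ins1 share than between the whole libraries.

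Insrr and Ppp1r1a were also lower in each band than over all cells (1.48 and 1.22), with Insrr at 1.02, 1.11, 0.84 and 1.25 and Ppp1r1a at 1.10, 1.16, 0.85 and 1.06. Rgs2, at 1.63 over all cells, was at 1.73, 2.003, 1.67 and 1.84. On the lower side, Fos was at -1.19, -1.41, -1.23 and -1.25 and Hspa5 at -0.86, -0.83, -0.84 and -1.05. Depth per cell differed between the libraries in each band, for example 44475 against 99754 UMIs at the median of the highest.

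**Figure D5:**
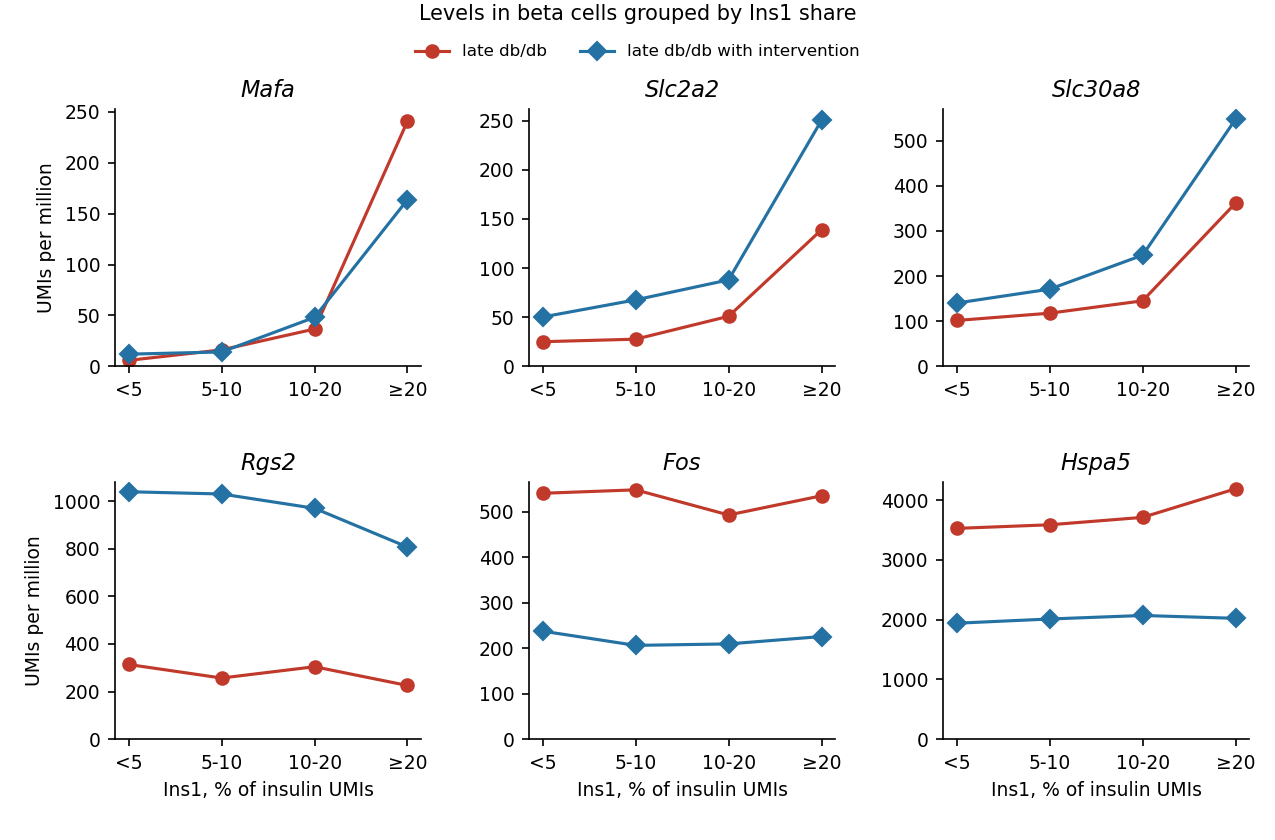
Level in CPM of 6 genes in beta cells grouped by Ins1 as a percentage of insulin UMIs, for late db/db (red circles) and the intervention (blue diamonds); lines join bands of 1 library. The Mafa curves cross, from 12.0 to 164 CPM with the intervention and 5.87 to 241 CPM in late db/db, while those of Slc2a2, Slc30a8, Rgs2, Fos and Hspa5 stay apart.

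Immediate early genes, which switch on within minutes of a stimulus or of tissue dissociation, were lower with the intervention. Fos (chr12:85473890-85477273), a subunit of the AP-1 factor, was at 220.1 against 531 CPM, a ratio of -1.27 (-1.31 to -1.24), with 350.2 CPM in the control and 561 CPM in early db/db. Klf6, a zinc finger factor, was at 50.5 against 119.6 CPM (-1.24), and Fosb, another AP-1 subunit, at 60.1 against 131 CPM (-1.12, and -0.83 in thinned cells, under 2-fold). Jun was at 410.1 against 686 CPM (-0.74) and Egr1 at 149.8 against 214 CPM (-0.52). In thinned cells 43.9% (42.1 to 45.6) and 70.0% (66.6 to 73.2) held a Fos UMI.

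Heat shock genes of the same list were lower too. Hsph1, a co-chaperone of HSP70, was at 111 against 209 CPM (-0.91), and the inducible HSP70 genes Hspa1a and Hspa1b were at 298 against 440.4 CPM (-0.57) and 165 against 267 CPM (-0.70). Hspa1a and Hspa1b are near-identical copies, so reads may be split between them. Of 23 listed genes 16 entered, each of the 16 was below 0, 3 were counted lower and none higher, and the median was -0.63. In the matched cells it was -0.91, again with all 16 below 0, and in cells of 40000 to 80000 UMIs it was -1.10. Atf3 and Klf2, below the entry limit and chosen after their values were seen, were at 3.15 against 22.2 CPM and 6.96 against 40.5 CPM.

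In the 2 other cell classes checked, the ratios of Fos, Klf6 and Fosb were also below 0, by differing amounts. The Fos ratio was -0.90 in macrophage-marker cells and -0.18 in endothelial-marker cells, that of Klf6 -0.61 and -0.21, and that of Fosb -1.92 and -0.26. Hsph1 was at -1.27 and 0.51.

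Most ER chaperone and unfolded protein response genes had ratios below 0, none of them as far as 2-fold. Hspa5 (chr2:34771970-34777547), the ER chaperone BiP, was at 2029 against 3653 CPM, a ratio of -0.85 (-0.86 to -0.84), with 1818 CPM in the control and 3229 CPM in early db/db. Dnajb9, a BiP co-chaperone induced through IRE1 and XBP1, was at 441 against 834 CPM (-0.92), below the control at 657 CPM. Hyou1, a nucleotide exchange factor of BiP, was at 147 against 245 CPM (-0.74), and Pdia3 and Pdia4, protein disulphide isomerases, were at 993 against 1500.2 CPM (-0.60) and 270.5 against 396 CPM (-0.55). The largest ratio of the list in either direction was that of Ero1lb, higher with the intervention (0.98), and Ssr4, a translocon-associated protein, was also higher, at 6014 against 4598 CPM (0.39). Sec61g, a subunit of the ER translocon, was at 962 against 1675 CPM (-0.80). All 38 listed genes entered, 31 below 0 and 7 above, none was counted, and the median was -0.20 (-0.14 in the matched cells, with 27 below 0). Per thinned cell, the 38 genes gave a median of 97 UMIs with the intervention, 110 in late db/db and 67 in the control. Syvn1, an ubiquitin ligase of ER-associated degradation, reached 50 CPM only in late db/db, at 65.4 against 40.9 CPM (-0.68). In the other cells, the Hspa5 ratio was 0.48 in macrophage-marker cells and -0.56 in endothelial-marker cells.

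The ER stress response element, through which ATF6 acts on chaperone promoters, was searched for as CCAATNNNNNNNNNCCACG on both strands of the 250 bases before each RefSeq transcription start (GRCm38.p6). It was found in 9 of the 32 listed ER genes that matched a window (28.1%), against 0.130% of all 27025 genes with one. Among the 2766 genes with a window that entered, the share was 0.362%. The sites of the gene with the largest difference and of 3 others are shown to compare their letters, 5′ to 3′ along the gene's strand with the element in capitals, which for Calr reads as its reverse complement.
Hspa5, chr2:34772020-34772048, plus strand: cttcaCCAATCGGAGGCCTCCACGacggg
Syvn1, chr19:6046527-6046555, plus strand: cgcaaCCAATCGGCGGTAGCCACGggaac
Calr, chr8:84847070-84847098, minus strand: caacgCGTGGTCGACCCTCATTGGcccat
Pdia6, chr12:17266486-17266514, plus strand: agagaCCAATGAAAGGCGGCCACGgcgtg
The element of Hspa5 ends 46 bases before the start, that of Syvn1 25, that of Calr 143 and that of Pdia6 79. Their expression ratios were -0.85 for Hspa5, -0.68 for Syvn1, -0.29 for Calr (calreticulin, 1512 against 1854 CPM) and -0.02 for Pdia6 (a disulphide isomerase, 1974 against 2000.4 CPM). All 9 genes with the element were below 0, with a median of -0.20. The 23 listed ER genes with a window and without the element had a median of -0.21 with 18 below 0, and the other 6 had no window to search. The cAMP response element TGACGTCA was found in 2 of 19 immediate early and heat shock genes with a window (10.5%), Btg2 and Dusp1, against 1.77% of all genes and 3.94% of those that entered. The MAF half-site TGCTGAC was found in 1 of 12 maturation markers with a window (8.33%), G6pc2, against 4.31% of all genes and 4.05% of those that entered. In G6pc2 it lay in a window inside the gene, chr2:69219699-69219948. The G6pc2 window before the gene start given above, chr2:69210823-69211072, held none.

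Genes of the integrated stress response, which slows translation through eIF2α, were not uniform. Ddit3, the factor CHOP, was at 59.0 against 109.7 CPM (-0.90), and Ppp1r15a, which reverses eIF2α phosphorylation, at 65.4 against 103 CPM (-0.65). Nupr1, a stress-induced nuclear protein, was at 194 against 106 CPM (0.88), with 21.6% of the late db/db UMIs in 10 cells. Of 32 listed genes 14 entered, 11 above 0 and 3 below, none counted, with a median of 0.19 that was 0.04 in the matched cells. Of 20 cytosolic tRNA synthetases 12 entered, 9 below 0, with a median of -0.18.

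Markers of immature or dedifferentiated beta cells differed from one another. Gast (chr11:100334407-100336996), gastrin, a peptide that fetal islets make, was at 162 against 570 CPM, a ratio of -1.82 (-1.86 to -1.78) and -1.72 in the matched cells, with 330.4 CPM in early db/db and 2.35 CPM in the control. In thinned cells 19.9% (18.5 to 21.4) and 40.97% (37.5 to 44.5) held a Gast UMI, and 10 cells held 26.7% and 28.2% of each library's Gast UMIs. Aldh1a3, a retinaldehyde dehydrogenase and marker of failing beta cells, was at 304 against 422 CPM (-0.48), with 48.0% and 54.2% of thinned cells holding a UMI and 3.48 CPM in the control. Cck, cholecystokinin, was at 1199 against 1748 CPM (-0.54), yet 46.2% and 46.6% of thinned cells held a UMI, and its ratio ran from 0.33 to -0.76 over the Ins1 bands. From the lowest of these bands to the highest, Gast was at -1.38, -1.14, -1.64 and -0.70. Aldh1a3 was at -0.36, -0.16, -0.07 and -0.10, so both had smaller differences between cells of like Ins1 share than over all cells. Of 20 listed markers 8 entered, 1 was counted lower and none higher, and the median was -0.23. All 3 genes were far above the control in both db/db groups.

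Among other islet peptides, Cartpt, a peptide of stressed and immature islet cells, was at 27.5 against 71.3 CPM (-1.37, and -0.97 in cells of 40000 to 80000 UMIs). Pdyn, prodynorphin, was higher, at 522 against 280.4 CPM (0.90, and 1.17 in the matched cells, past 2-fold). None of the 22 genes normally silent in beta cells, the disallowed genes, reached 50 CPM in either library.

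Most other lists centred near 0. The nuclear genes of oxidative phosphorylation (73 of 73 entered) had a median of -0.09 and none was counted. The proteasome genes (31 entered) had -0.08, glycolysis (9) -0.18, cholesterol synthesis (8) 0.03, fatty acid oxidation (6) 0.03, autophagy and lysosome (18) 0.05 and apoptosis and survival (4) 0.02, and none of these members was counted. Among 18 antioxidant and metallothionein genes with a median of -0.04, the brain-type metallothionein Mt3 was counted lower at 75.5 against 151 CPM (-1.004), but was at -0.61 in the matched cells. Of the zinc and ion channel genes 11 entered with a median of 0.18 and Slc30a8 alone was counted. Of 25 cell cycle genes 4 entered, with Ccnd2, the main D cyclin of beta cells, at 613 against 351 CPM (0.80) and Ccnd1 at 151 against 248 CPM (-0.72). The 5 MHC class I and interferon genes that entered had a median of 0.13, and -0.14 in the matched cells. Gapdh was at 862 against 897 CPM (-0.06).

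Short transcripts were lower with the intervention as a class. The 44 genes that entered with a longest transcript under 600 bases had a median of -0.32 with 79.5% below 0, against 0.01 for 244 genes of 600 to 1000 bases. Of this class, Ndufa1 and Atp5k, of the respiratory chain and ATP synthase, were at 1161 against 1962 CPM (-0.76) and 150.5 against 268 CPM (-0.83). These genes had ratios of -0.41 (Ndufa1) and -0.86 (Atp5k) in endothelial-marker cells, and of -0.18 and -0.62 in macrophage-marker cells. Gast, Mt3 and Igkc also belong to it, and their ratios stand with their own groups.

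Cytosolic ribosomal protein genes had a median of -0.07 over 80 genes. Rps28, a small ribosomal protein gene 10 bases from Ndufa7 on the other strand, was the 1 counted, at 587 against 1177 CPM (-1.003, and -0.86 in the matched cells). It was at -1.72 in endothelial-marker cells and -0.88 in macrophage-marker cells. Hap1, the huntingtin-associated protein of vesicle transport, was at 262 against 570 CPM, a ratio of -1.12 (-1.07 in the matched cells), and at -1.40 and -1.73 in macrophage- and endothelial-marker cells. Arg1, the urea cycle arginase, was at 25.7 against 53.4 CPM (-1.05, and -1.23 in the matched cells).

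RNAs of lymphoid and stromal cells were among the genes furthest below 0. Ccl21a, a chemokine of lymphoid stroma, had 0 UMIs in the 3357 intervention cells and 3661 in the 820 late db/db cells, at least 2121-fold lower against a floor of 3 UMIs over the summed cells. Of these 3661 UMIs 80.3% lay in 10 cells. Igkc, the immunoglobulin kappa constant region, was at 1.42 against 142 CPM (-6.64). The MHC class II genes Cd74 and H2-Aa were at 32.4 against 124 CPM (-1.93) and 13.2 against 53.0 CPM (-2.003), with 50.3% and 51.4% of late db/db UMIs and 78.8% and 77.1% of intervention UMIs in 10 cells, and at -4.74 and -4.34 in the matched cells.

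Marker lists of other cell types did not all run in 1 direction in these barcodes. The 8 B lymphocyte markers summed to 15.7 CPM of all beta cell UMIs with the intervention and to 79.2 in late db/db, where none was at 0, while Ms4a1 was at 0 with the intervention. Summed B lymphocyte markers per beta cell ran from 0 to 364 UMIs and from 0 to 635, with medians of 0 and 2. The 8 T and NK lymphocyte markers summed to 0.665 and 19.1 CPM, none of them at 0, while the 8 macrophage markers summed to 115 and 113 and the 6 duct markers to 488 and 489. Stroma markers (7.23 and 14.4) and acinar markers (53.7 and 114) were lower with the intervention. Endothelial markers were higher, at 13.9 and 5.25. So were the alpha (8284 and 5557) and delta markers (491 and 206), which include the Gcg and Sst of the cell rule. Removing cells with 3 or more lymphoid, dendritic, endothelial or stroma marker UMIs, a filter added after seeing the data, left 3181 and 308 cells; 20 genes were then counted higher and 16 lower, and the medians of the maturation and immediate early lists were 1.34 and -0.80. Amigo2, a cell adhesion gene at 28.4 against 60.4 CPM (-1.09), was under 2-fold in those cells, at -0.92.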

How the data were processed

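UMI counts per gene and cell barcode were used as deposited by the authors, as whole numbers without normalization, in 1 matrix per library. Per the file headers they were written by Cell Ranger 3.0.0; per the submitters' processing notes the build was mm10 and CASAVA 1.8, Cell Ranger and Seurat were used. Which annotation release was counted against was not stated. Gene positions came from GENCODE M21 by gene identifier (30766 of 30905 matched).

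The members and gene lists were chosen with earlier results of these data known. Counts were summed over beta cells, divided by the sum outside mt- genes and the 7 hormone genes, and compared as log2 ratios with exact conditional binomial 95% intervals; shares of cells have exact Clopper-Pearson intervals. Matched cells were drawn at equal numbers per bin of 0.5 log2 units of total UMIs (seed 1). Macrophage- and endothelial-marker cells held at least 10 UMIs of that class's markers and under 20% insulin. Named genes were up to 12 higher and 12 lower ones at least 2-fold apart in summed, matched and thinned cells (11 of each, counting Ccl21a at 0), the 8 most abundant counted genes, 19 preset genes and up to 4 members per list with the largest ratios; further list members were named after their values were seen. The ratio code recovered known ratios on simulated data.

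Doublets were not removed: Scrublet (scanpy 1.11.5) marked 2 and 69 barcodes automatically, too few with the intervention to have worked, so removal of the highest scores (0.8% per 1000 cells; 126 and 74 beta cells) was an alternative. Free RNA was estimated at 5.13% and 1.13% of beta cell UMIs. The joint share of lymphoid, macrophage, dendritic, endothelial, stroma, acinar and duct markers in beta cells was divided by that in barcodes under 1000 UMIs. TMM factors came from edgeR 4.0.16. Promoter sequences were RefSeq's.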

Additional observations from a re-analysis of the deposited data

How the results depend on the processing

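No paired analysis was possible because each group is 1 library, and for the same reason no replicate could be left out. The counts of 23 higher and 20 lower genes stayed within 1.5 times in both directions under 11 of the 14 other settings run. With all UMIs as the denominator 6 genes were higher, of only 1372 that entered. The counts were 58 higher and 42 lower of 6592 with an entry limit of 20 CPM and 20 UMIs. With no CPM limit and 10 UMIs they were 1071 and 966 of 16006. The planned removal of cells with 3 or more marker UMIs of any other class left 155 and 0 cells and gave no value. Of 25 named genes at least 2-fold apart, 16 stayed so under each setting run outside the Ins1 bands, and none changed direction there. Most of the 25 were chosen as 2-fold apart in summed, matched and thinned cells. For those genes the matched and thinned settings could not give another outcome.

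Among genes at least 2-fold apart, ratios that changed sign were those of Mafa in the Ins1 bands of 5 to 10% (-0.20) and at least 20% (-0.56) and of Tmem215 under 5% (-0.15) and at 5 to 10% (-0.13). The counting intervals of these ratios included 0, except that of Mafa at least 20%. Among genes under 2-fold that the text names, Cck was above 0 in both bands under 10% (0.33 and 0.15), Gapdh was at 0.04 in matched cells and above 0 in the lowest band, Ucn3 was below 0 with all UMIs as the denominator, and Pdx1 was below 0 in cells of 40000 to 80000 UMIs. With all UMIs as the denominator, list medians changed sign for the granule genes (-0.019), receptors and cAMP signalling (-0.056), ion channels (-0.0069), other islet peptides (-0.049) and MHC class I and interferon genes (-0.057). The last list was also below 0 with lower entry limits (-0.23 and -0.30), in matched cells (-0.14), thinned cells (-0.10) and cells of 40000 to 80000 UMIs (-0.022), where the ion channel list was at -0.028. The share of cells with a Cck UMI differed by -0.41 points, and by 1.06 points when thinned to 6000 UMIs. The causes were not tested.

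Over all settings the maturation median lay between 1.18 and 1.44, that of the immediate early and heat shock genes between -1.10 and -0.50, and that of the ER genes between -0.39 and -0.13. Intervention cells held fewer UMIs each, 246 of them too few for thinning to 3000, and the free RNA estimate was higher in that library.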
